A study of Homo sapiens with 12 samples.

Results

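The miRNAs described here are miR-375, both arms of miR-139, and miR-326, which are described as lost in oesophageal squamous carcinoma and as tumour suppressors. They were taken by name, as every human probe whose name without its arm is miR-375, miR-139 or miR-326. This gave 4 probes of 2565 human miRNA probes on the array: hsa-miR-375 (MIMAT0000728), hsa-miR-139-5p (MIMAT0000250), hsa-miR-139-3p (MIMAT0004552) and hsa-miR-326 (MIMAT0000756). Total RNA of KYSE150 cells, an established line of oesophageal squamous cell carcinoma, carried a Cy5 label and was read on 3D-Gene miRNA arrays, 1 sample per array. The 6 control arrays held cells cultured without galectin-9 and the 6 galectin-9 arrays held cells given 100 nM of this galactoside-binding lectin for 6 h. Both groups grew in Ham's F12 medium with 2% serum. Whether the 6 samples of a group were grown apart is not stated, so every p-value is set against a spread between samples that may be technical. All values are for 1 cell line, with no normal oesophageal cells beside it, so a loss in the tumour line was not measured.

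A miRNA binds target transcripts mainly through its seed, bases 2 to 8 from its 5′ end, and lowers their translation and stability. miR-375 is abundant in pancreatic islets and glandular epithelia and is known to target the kinase PDK1, the receptor IGF1R and the co-activator YAP1. miR-139 lies in an intron of the phosphodiesterase gene PDE2A, and its 5p arm is known to target IGF1R and the kinase ROCK2. miR-326 lies in an intron of the arrestin gene ARRB1 and is known to target Notch receptors and the Hedgehog transducer SMO.

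The mature sequences are shown because each seed defines what the miRNA can bind. RefSeq (GRCh38.p14) held all 4, with miR-375 under the name miR-375-3p. Capitals mark the seed.
miR-375: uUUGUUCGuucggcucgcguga
miR-139-5p: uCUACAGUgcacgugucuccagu
miR-139-3p: uGGAGACGcggcccuguuggagu
miR-326: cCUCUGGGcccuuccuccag
No seed is shared among these 4. Of the other human mature miRNAs in the table, only miR-330-5p has the seed of any of them, that of miR-326, and the letters of both run alike for 9 bases from base 2.
miR-330-5p: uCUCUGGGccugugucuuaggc
In GRCh38.p14, miR-375 lies on the minus strand at chr2:219001648-219001669, between the genes CRYBA2 and CFAP65. On the minus strand of chromosome 11, miR-139-5p lies at chr11:72615102-72615124 and miR-139-3p at chr11:72615066-72615088, both within PDE2A. miR-326 lies at chr11:75335108-75335127, within ARRB1 on the same strand, and the hairpins of miR-139 and miR-326 are 2719961 bases apart. The share of G and C was 54.5% for miR-375, 52.2% for miR-139-5p, 65.2% for miR-139-3p and 70.0% for miR-326. The median was 56.5% over the 1520 tested probes with a RefSeq sequence under the same name. The hairpin of miR-139 is shown with its 2 measured arms in capitals, since the probes for both arms read products of 1 precursor.
MIR139: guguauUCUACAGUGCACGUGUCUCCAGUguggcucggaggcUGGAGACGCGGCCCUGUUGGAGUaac

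Over the arrays, 934 to 2045 of the human probes were detected, fewest on control 6, and each array's raw background lay between 27.6 and 42.7 intensity units. A probe counts as detected where its raw intensity exceeds the trimmed mean of the array's 320 blank spots by more than 2 SD of those blanks, the limit used by the authors for listing a value. Of the squamous and epithelial marker probes, 12 of 16 were detected on all 12 arrays, miR-205-5p among them. Of the muscle marker probes 0 of 10 were, of the blood cell marker probes 1 of 11, of stroma markers 1 of 7 and of endocrine, neuron and liver markers 1 of 8. Both arms of miR-126, the endothelium marker, were detected on all arrays too, and over all human probes 891 of 2565 were (34.7%). The arrays sat on 3 slides, each with 2 of either group, and treated samples always took the even positions, so treatment and position parity cannot be told apart.

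All 4 probes lay close to the background of the arrays. Raw intensity minus the array background ran from -0.22 to 5.29 units for miR-375, from -0.49 to 4.35 for miR-139-5p, from 1.33 to 7.33 for miR-139-3p and from 2.13 to 6.51 for miR-326. Brightness is not compared between these probes, since each probe binds its miRNA with its own strength. By the authors' limit miR-326 was detected on 12 of 12 arrays, miR-139-3p on 11, miR-375 on 9 and miR-139-5p on 6. The 2 arms of miR-139 were thus read unequally often, and control 6 was the only array without miR-139-3p.

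hsa-miR-375 was detected on 3 of 6 control and 6 of 6 galectin-9 arrays. Of all 2565 human probes, 60.8 ± 14.6% were detected on control and 70.6 ± 7.9% on galectin-9 arrays (SD, n = 6 each). The detection counts by group, here and below, are to be read beside these shares. The signal of miR-375, in SD of the array's blank spots above background, had a lowest value of -0.14, a median of 1.99 and a highest value of 6.30 in controls. On galectin-9 arrays these values were 2.04, 3.35 and 6.20. Controls 1, 4 and 6 lay below the limit, control 3 was above every treated array and control 2 above all but 1, so the groups overlap. Detection did not differ at the threshold (Fisher's exact test, two-sided, p = 0.182, adjusted p = 1 over all 2565 probes). Of all 2565 probes, 0 passed this test after adjustment and 4 had an unadjusted p under 0.05. With 6 arrays per group, the adjusted value thus says little about any single probe. The mean signal was 2.67 ± 2.54 in control and 3.65 ± 1.54 in treated cells (SD, n = 6 each, exact permutation p = 0.433, two-sided). Within slides 1, 2 and 3 the difference was -0.19, -1.26 and 4.38 blank SD, so that only slide 3 gave a higher signal with galectin-9.

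hsa-miR-139-5p, the arm usually described as the guide strand, was detected on 2 control and 4 galectin-9 arrays (Fisher's exact test p = 0.567, adjusted p = 1). Its signal in controls had a lowest value of 0.0082, a median of 1.39 and a highest of 4.88 blank SD. With galectin-9 it had -0.50, 2.47 and 3.43. Its detections were spread unevenly over the slides: it was found on 4 of 4 arrays of slide 1, 0 of 4 of slide 2 and 2 of 4 of slide 3, both of the latter with galectin-9. This division by slide was read off after the values were seen and was not tested. The group means were 1.81 ± 1.66 in control and 1.81 ± 1.59 in treated cells (SD, n = 6 each, exact permutation p = 1).

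hsa-miR-139-3p, the opposite arm of the hairpin printed above, was detected on 5 control and 6 galectin-9 arrays. Its signal had a lowest value of 0.84, a median of 3.23 and a highest of 8.22 blank SD in controls, against 3.39, 6.10 and 6.72 with galectin-9. Control 2 was the highest array of all, and 4 of the other 5 controls lay below 4 blank SD. The mean was 3.75 ± 2.45 in control and 5.52 ± 1.33 in treated cells (SD, n = 6 each, exact permutation p = 0.152), a difference within the spread between arrays. Without control 2, the highest array, the difference was 2.66 blank SD with an exact permutation p of 0.0130, unadjusted. With any other single array left out, the exact permutation p ran from 0.104 to 0.297.

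hsa-miR-326 was the only one of the 4 detected on every array. Its signal in controls had a lowest value of 2.30, a median of 3.44 and a highest of 6.71 blank SD. With galectin-9 the values were 3.11, 6.02 and 8.68, and the groups overlap. Means of 3.92 ± 1.77 in control and 5.69 ± 2.03 in treated cells lay within the spread between arrays of each other (SD, n = 6 each, exact permutation p = 0.134). The difference was 2.27 blank SD within slide 1, -0.42 within slide 2 and 3.45 within slide 3. Blank spots themselves varied more on control arrays, with an SD of 1.07 ± 0.28 intensity units against 0.89 ± 0.19 on galectin-9 arrays (SD, n = 6 each). This unit divides the signals above, and its part in them was not tested.

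**Figure D1:**
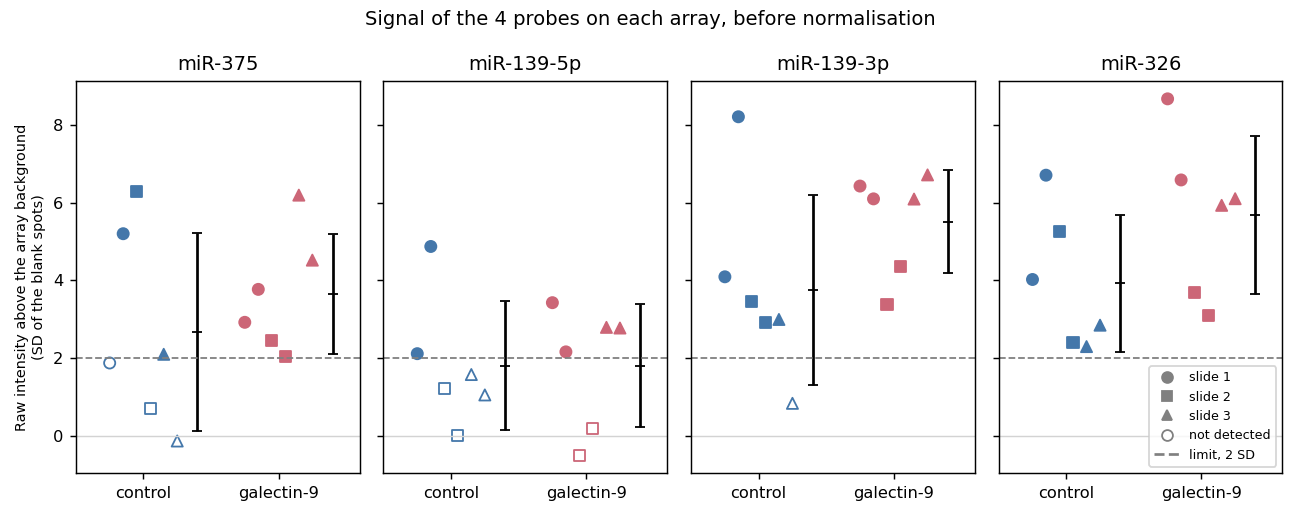
Signal of each probe on each array, as raw intensity above the array background in SD of the array's blank spots (vertical axis), by group (horizontal axis). Symbols give the slide, open symbols arrays without detection and bars the mean ± SD of 6 arrays; miR-326 lies above the dashed limit of 2 on all 12 arrays and miR-139-5p on 6.

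How far such dim probes stand above spots that should hold no signal was read from the arrays' own control spots. Of the 320 blank spots, 5.62% to 9.38% exceeded the limit on an array. Of 85 further spots that the files list as No Probe, 36.5% to 87.1% exceeded it; what these spots carry is not given in the sources used here. miR-326 was brighter than the median No Probe spot on 11 of 12 arrays, miR-139-3p on 10, miR-375 on 9 and miR-139-5p on 4. Against the 95th percentile of the No Probe spots, a limit added after the data were seen, miR-326 remained above on 2 arrays, miR-139-3p on 1, miR-375 on 1 and miR-139-5p on 0. On galectin-9 replicate 1, 2.35% of the No Probe spots were at least as bright as miR-326, the lowest share for any of the 4 probes on any array. On control 5 this share was 87.1% for miR-326, miR-375 and miR-139-5p, and 78.8% for miR-139-3p. The detection calls of these 4 probes therefore depend on which spots serve as the reference.

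**Figure D2:**
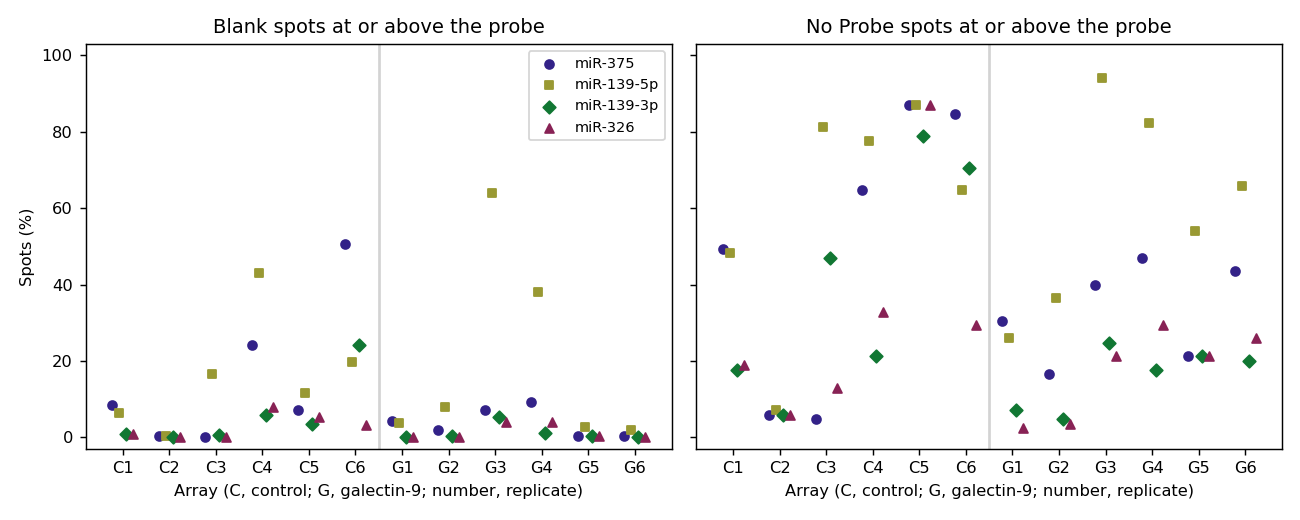
Percentage of blank spots (left) and of spots listed as No Probe (right) that were at least as bright as each of the 4 probes, on each of the 12 arrays. Over the 4 probes the share of blank spots runs from 0% to 64.1%, and for miR-326 alone it is at most 7.81%. The share of No Probe spots runs from 2.35% to 94.1% over the 4 probes.

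The effect of galectin-9 was tested after quantile normalisation, with undetected values set to the array's lowest detected value, the floor. At a Benjamini-Hochberg adjusted p under 0.05 in limma, 3 of 1734 tested probes passed (0.173%), all toward higher levels, and 0 of the 4 described here did. With the replicate number as a block, 1 of 1734 passed (0.0577%), again none of the 4. None of the 4 had an unadjusted p under 0.05 in the fit without the block.

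For miR-326, log2 intensity had a lowest value of 1.48, a median of 1.86 and a highest of 2.82 in controls, and 1.85, 2.25 and 2.54 with galectin-9. The groups overlap, and control 6 held the highest value of all 12 arrays, although its signal was 2.85 blank SD and it had the fewest detected probes. The difference was 0.19 ± 0.21 (SE) on the log2 scale, a ratio of 1.14 with a 95% interval from 0.836 to 1.56 (limma adjusted p = 0.729). It was above 0 in 4 of 6 pairs of equal replicate number. The authors' deposited series table lists miR-326 alone among the 4, and the same model on its values did not pass either (limma adjusted p = 0.603). In the fit above, ratios over 1.56 or under 0.836 lie outside the interval, and ratios between these bounds, 1 included, lie within it. Without control 6 the log2 difference was 0.35 ± 0.16 (SE), and with the authors' global normalisation it was 0.49 ± 0.25. The bounds therefore hold only for the fit on all 12 arrays with quantile normalisation.

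hsa-miR-139-3p gave a ratio of 1.14 (0.823 to 1.59, limma adjusted p = 0.743), from a log2 intensity of 1.99 ± 0.52 in control and 2.18 ± 0.26 in treated cells (SD, n = 6 each). The groups overlap: control 2, at 2.63, exceeded every treated array. Control 6 did so as well, at 2.44, but this was the floor, since miR-139-3p was undetected there. Its signal on control 6, 0.84 blank SD, was its lowest on any array. The log2 difference of miR-139-3p was 0.19 ± 0.22 (SE) with all arrays and 0.28 ± 0.22 without control 6. For miR-375 the ratio was 0.854 (0.527 to 1.39, limma adjusted p = 0.800), with 1.70 ± 0.61 in control and 1.48 ± 0.62 in treated cells. miR-139-5p had the smallest ratio, 0.727 (0.467 to 1.13, limma adjusted p = 0.511), with 1.39 ± 0.76 against 0.93 ± 0.23 (SD, n = 6 each).

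The floor entered these values unequally. Control arrays had a floor of 1.13 ± 0.83 and galectin-9 arrays 0.50 ± 0.62 on the log2 scale (SD, n = 6 each). On control 6 the floor was 2.44, so that miR-375 and miR-139-5p, undetected there, received their highest control values from this array. By signal, control 6 was the lowest control for miR-375. Both probes differed between the scales: miR-375 was lower by the floored log2 value and higher by the mean signal, and miR-139-5p was lower by the former and level by the latter. Without control 6 the log2 differences were still below 0, at -0.08 for miR-375 and -0.25 for miR-139-5p, and the mean signal of miR-375 was still higher, by 0.41 blank SD. That of miR-139-5p was then lower, by a difference of -0.15, and the cause of the differing signs was not tested. With 1 floor common to all arrays, both lay on it throughout and gave a difference of 0, and miR-139-3p and miR-326 turned to -0.032 and -0.047. With the authors' global normalisation the log2 differences were 0.17 for miR-375, 0.51 for miR-139-3p and 0.49 for miR-326 (limma adjusted p = 0.766, 0.354 and 0.378). For miR-139-5p it was -0.00027 (limma adjusted p = 0.999), against -0.46 with quantile normalisation.

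**Figure D3:**
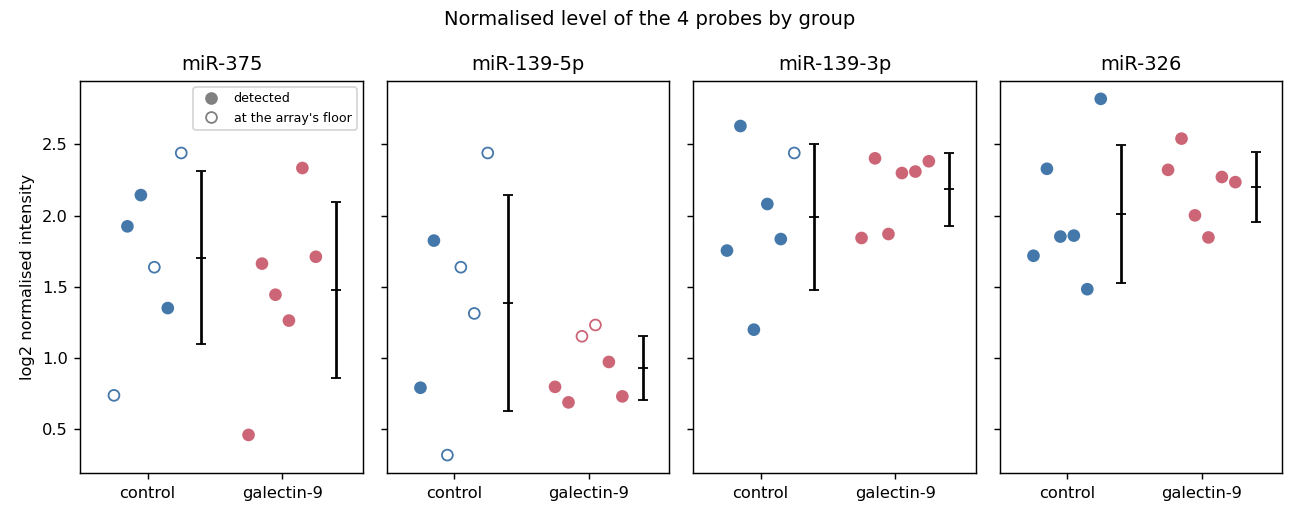
Log2 normalised intensity (vertical axis) of each probe on the 6 control and 6 galectin-9 arrays (horizontal axis). Open circles are undetected values set to the array's floor and bars give the mean ± SD; the open circle at 2.44 in 3 of the panels is control 6.

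**Figure D4:**
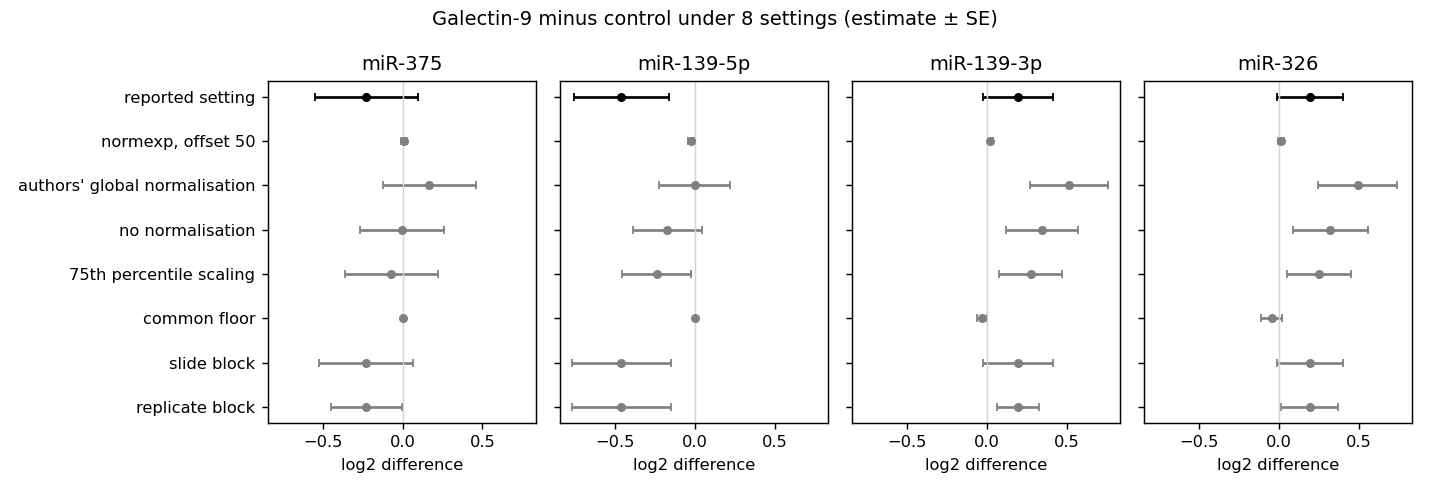
Log2 difference, galectin-9 minus control, of each probe with its SE (horizontal axis) under 8 ways of normalising, flooring or blocking (vertical axis). Each setting uses all 12 arrays; miR-375, miR-139-3p and miR-326 lie on both sides of 0.

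The 2 arms of miR-139 were compared within each array, since both come from the same precursor. The log2 difference of miR-139-5p minus miR-139-3p had a mean of -0.60 ± 0.36 in control and -1.26 ± 0.39 in treated cells (SD, n = 6 each). The values ran from -1.72 on galectin-9 replicate 2 to 0 on control 6, where both arms sat on the floor. The change of this difference with galectin-9 was -0.65 (exact permutation p = 0.0152, two-sided, unadjusted, 1 of 5 such tests on these probes, not counting repeats under other settings). It was -0.50, -0.23 and -1.23 within slides 1, 2 and 3. As exact sign flips of the 6 replicate pairs, with 5 of 6 pairs lower, p was 0.0938. miR-139-5p lay on the floor on 4 control and 2 galectin-9 arrays, where its value is an upper bound. On the 6 arrays with both arms detected, 2 control and 4 galectin-9, the change was -0.55 (exact permutation p = 0.133, the smallest such a split allows being 0.0667). In blank SD units, with no floor, the arms differed by -1.95 in control and -3.71 in galectin-9 cells, a change of -1.76 (exact permutation p = 0.00649, unadjusted). All 6 of 6 pairs were lower there, with an exact sign-flip p of 0.0312, the smallest that 6 pairs allow. That unit was added after the data were seen. Neither arm alone passed, and the part of the unequal floors and blank SDs in this difference was not tested.

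miR-330-5p, which shares the seed of miR-326, was detected on all 12 arrays with a signal from 14.4 to 60.1 blank SD. On the log2 scale it had 5.08 ± 0.14 in control and 4.92 ± 0.22 in treated cells (SD, n = 6 each), a difference of -0.16 ± 0.12 (SE, limma adjusted p = 0.571). The probe with this seed that stood clear of the blanks on every array thus did not pass the test either.

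Profiles over the arrays were also set against all other probes, over the arrays on which the respective miRNA was detected. For miR-326 the highest Pearson correlations over 12 arrays, among 890 candidates, were with miR-24-3p (0.834), miR-6895-5p (0.817) and miR-3916 (0.780). miR-139-3p came closest to let-7b-5p (0.877), miR-363-5p (0.845) and miR-1972 (0.839) over 11 arrays among 1172 candidates. Over 9 arrays and 1239 candidates, miR-375 came closest to miR-642b-5p (0.828), miR-365b-5p (0.819) and miR-4762-3p (0.770). For miR-139-5p only 6 arrays were left, with miR-7107-5p (0.964), miR-3691-5p (0.946) and miR-4455 (0.913) first among 1477 candidates. These are the highest of many values over few arrays that share slides and normalisation, and serve as a description only.

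Other miRNAs described as lowered in squamous carcinomas were represented by 39 probes, of which 19 were detected on all arrays, 32 were tested and 1 was detected on no array. limma called 0 of the 32 higher and 0 lower, against 0.173% of all tested probes, and 9 (28.1%) had an unadjusted p under 0.05, as did 223 of all 1734 tested probes (12.9%). Their median log2 difference was -0.03, beside -0.07 over all 1734 tested probes. The smallest p-values belonged to miR-99a-5p (0.56, adjusted p = 0.141), miR-30a-3p (0.35, adjusted p = 0.256) and miR-143-5p (-0.85, adjusted p = 0.259), the last detected on 7 arrays. The 19 listed probes detected on all 12 arrays had median signals from 6.98 blank SD (miR-378a-5p) to 578 blank SD (miR-30a-5p), and miR-1-3p was detected on none. miR-326, also detected on all 12, had a median of 4.64 blank SD. It is not ranked against these probes, since each probe binds its miRNA with its own strength.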

How the data were processed

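Each deposited array file gives, per the file headers, the intensity of each of 3200 spots as scanned, after background subtraction and after global normalisation, in arbitrary units. Comparison of the columns showed that the authors subtracted a mean of the 320 blank spots that leaves out 5% of them at either end, listed a value only above 2 SD of the trimmed blanks, and scaled the listed probes to a median of 25. The authors' deposited series table holds linear, quantile-normalised intensity for 891 probes, with a median of 12.3 in every column, uncentred. The sources used here name neither scanner nor software. The precision is limited by the number of arrays.

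Raw intensity minus background was quantile-normalised over the 2565 human probes (limma 3.58.1, R 4.3.3), undetected values were set to the array's lowest detected value, and log2 was taken. Of the human probes, 6 spots carry a mark of poor quality and were not used. Every probe found on 6 or more of the 12 arrays entered lmFit and eBayes, without a block. The fit was checked on simulated data. Signals in blank SD were tested by exact permutation over the 924 splits and detection by Fisher's exact test. Slides were read from a code in the file names. Replicate numbers were taken as pairs in the replicate block, the sign flips and the counts of pairs, and not in the other tests. Deviations from group means correlated above 0.1 in 6 of 6 pairs, from 0.171 to 0.527, a result that neighbouring positions on a slide could also give.

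Named were the 4 members, probes with the same seed, the 3 most alike profiles of each, and the 3 smallest p of the list of other lowered miRNAs; for marker lists only counts are given, and further names were chosen after their values were seen. Members and lists were chosen with earlier results of these data known. Alternatives covered normalisation, floor, filter, detection limit, blocks and each array left out.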

Additional observations from a re-analysis of the deposited data

Results flagged for a closer look

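Spots that the files list as No Probe served only as a reference for the 4 probes and as an alternative detection limit. Many of them were brighter than the limit set by the blank spots. On control 2, the array with the lowest share together with control 4, 36.5% of 85 such spots exceeded it, and on control 5, the highest, 87.1%. The shares were 54.3 ± 20.3% on control and 54.1 ± 14.6% on galectin-9 arrays (SD, n = 6 each). Spots listed as negative controls exceeded the limit in 0% to 50% of 32 spots. No array of a group stood apart from the other 5 by Dixon's criterion in any of 16 sets of 6 values of the 4 probes.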

How the results depend on the processing

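Limits: the signals of the 4 probes reach at most 8.68 blank SD (miR-326), and up to 6 of their 12 values are floors. Of 14 results, those on single probes without a call gained none in limma under any setting run. The count of called probes, 3 of 1734, was 19 with normexp (13 higher, 6 lower), 9 with a common floor, 9 of 891 probes detected on all arrays and 9 in the authors' table (6 higher, 3 lower each), 5 with a slide block, 1 with the replicate block, and 2 to 5 with single arrays left out; where not given by the smaller number of probes tested, the cause was not tested. Without galectin-9 replicate 1 it was 5. The log2 difference changed sign for miR-375 with normexp (0.011), with global normalisation (0.17) and within slide 3 (0.13), for miR-139-5p within slide 2 (0.21), for miR-139-3p with a common floor (-0.032) and within slide 1 (-0.069), and for miR-326 with a common floor (-0.047). With single arrays left out it stayed from -0.42 to -0.02, -0.67 to -0.25, 0.04 to 0.32 and 0.09 to 0.35, in that order. Detection changed direction for miR-139-5p, to -1 array with a limit at 1 SD and to -1 with the 99th percentile of the blanks, and for miR-375 to -1 with the 95th percentile of the No Probe spots. For miR-375 it was equal, 2 arrays per group, with the 99th percentile of the blanks, and 2 control against 3 galectin-9 arrays at 3 SD. For miR-139-5p it was equal at 3 SD (1 array per group) and with the No Probe percentile (0 per group). At 3 SD miR-139-3p and miR-326 each had 3 control and 6 galectin-9 arrays. The signal difference changed sign within slides 1 and 2 for miR-375 (-0.19 and -1.26) and miR-139-5p (-0.70 and -0.76), and within slide 2 for miR-326 (-0.42). Leaving out single arrays gave 0.41 to 1.70 for miR-375, -0.36 to 0.62 for miR-139-5p, 1.17 to 2.32 for miR-326 and 1.18 to 2.66 for miR-139-3p, the last value, without control 2, at p = 0.0130 (exact permutation). For miR-139-3p the exact permutation p was 0.104 to 0.297 with any other array left out. The arm difference of miR-139, -0.65, ran from -0.76 to -0.53 with arrays left out, at exact permutation p of 0.00433 to 0.0325. It no longer passed over the arrays with both arms detected (-0.55, exact permutation p = 0.133) or with the replicate block (-0.65, exact sign-flip p = 0.0938). In blank SD units, with no floor, it passed both ways (-1.76, exact permutation p = 0.00649, exact sign-flip p = 0.0312, both unadjusted). The block changed no other call of these 4 probes. miR-375, miR-139-5p and miR-139-3p could not be fitted where only probes detected on all arrays entered, nor in the authors' table.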
